A study of Homo sapiens with 15 samples.

Results

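Fatty acid and cholesterol synthesis was followed through 37 genes in C4-2B cells. The genes were taken as a fixed list of 18 sterol enzymes, 7 regulators of the sterol regulatory element binding proteins (SREBPs) and 12 enzymes of fatty acid supply, synthesis, elongation and desaturation, out of 58302 genes in the count tables. All 37 were found by symbol. The list was chosen with earlier results of these data known, so high levels in it, FASN's included, are described and not tested. C4-2B is an established human prostate adenocarcinoma line derived from LNCaP, labelled wild type, grown in RPMI medium with fetal bovine serum, glutamine and antibiotics, and the labels name no drug or siRNA for it. In the study it is the parent of C4-2BER cells, which were obtained under enzalutamide. The labels hold 15 RNA-seq libraries in 5 groups of 3 replicates (C4-2B, and the DKD and ER lines with a scrambled control or an siRNA against Pax5). The 3 C4-2B libraries were analysed here, so no comparison was made between lines or siRNAs. The labels do not say whether the replicates were separate cultures, so p-values between them measure only the spread between these libraries, which may be technical.

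Cells make cholesterol and fatty acids from the same small precursor, acetyl-CoA. The mevalonate arm joins acetyl-CoA units into isoprenoids, the squalene arm closes them into lanosterol and trims lanosterol to cholesterol, and in the other branch acetyl-CoA is carboxylated and built into palmitate, which is then lengthened and desaturated. SREBPs are membrane-bound transcription factors that, when sterols are low, are carried from the endoplasmic reticulum to the Golgi, cut free by a pair of proteases and switch on both branches, and prostate cancer cells of the luminal type are known for active lipid synthesis.

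The libraries held 44992971, 49569026 and 46232076 counts in genes, and gene coordinates are those of the tables, on GRCh38. Levels are given as TPM, in which a count is divided by gene length and scaled to a fixed total over all genes of its library. CPM is the same without the division by length. The luminal prostate markers KLK3 (1988 ± 21.1 TPM, SD, n = 3), KLK2, TMPRSS2, KRT8, KRT18 and FOLH1 were all in the highest 10.0% of expressed protein-coding genes. None of the 3 basal, 4 adipocyte, 4 hepatocyte or 3 fibroblast markers reached 1 TPM in all libraries, and the defining adipocyte genes ADIPOQ and FABP4 had 0 counts. Of 3 leukocyte markers LYZ alone did so, at 2.08 ± 0.544 TPM (SD, n = 3). Counting intervals below cover counting error only and are too narrow, because the mates of a read pair were counted separately and no molecular identifiers were used.

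All 37 genes were expressed at 1 TPM or more in every library, where 32.8% of all genes and 61.2% of protein-coding genes were. The fatty acid enzymes were the most abundant group, with a median of 234 TPM over 12 genes, against 79.0 TPM over the 7 regulators and 36.7 TPM over the 18 sterol enzymes. The median of the 12059 expressed protein-coding genes was 22.2 TPM. In the highest 10.0% of those genes, at 104 TPM or more, stood 8 of the 12 fatty acid enzymes, 3 of the 7 regulators and 2 of the 18 sterol enzymes. Together these were 13 of the 37, or 35.1%, where the same threshold holds 10.0% of expressed protein-coding genes by its construction. As the list was not chosen blind to levels in these data, this share is a description and no test of enrichment. The median of the 37 was 49.2 TPM (SD of the library medians 2.74, n = 3), 19 stood above the 75th percentile of those genes (48.4 TPM) and 29 above their median. Levels spanned 200.4-fold, from FASN at 1228 ± 25.2 TPM to ACACB at 6.13 ± 0.176 TPM (SD, n = 3).

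**Figure D1:**
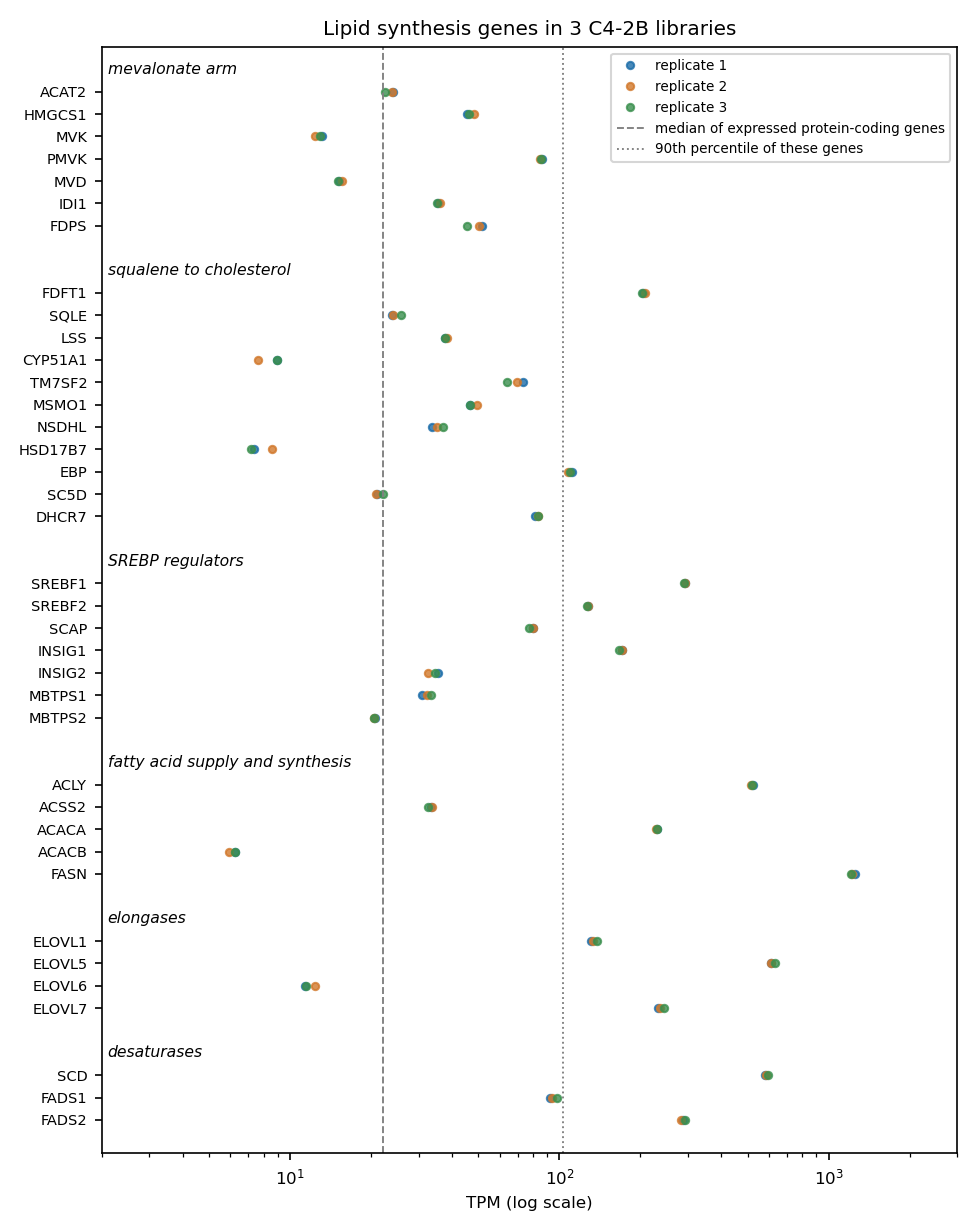
TPM of each of the 37 genes in the 3 C4-2B libraries, in pathway order, on a log axis. Each point is 1 library, the dashed line is the median of expressed protein-coding genes (22.2 TPM) and the dotted line their 90th percentile (104 TPM), and the libraries of a gene nearly coincide while genes of 1 pathway spread from 6.13 TPM (ACACB) to 1228 TPM (FASN).

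As a share of all counts, the 37 genes took 1.20% ± 0.00866 (SD, n = 3). The fatty acid enzymes held 0.918% ± 0.00750, the regulators 0.163% ± 0.00159 and the sterol enzymes 0.115% ± 0.00136 (SD, n = 3 each). The per-library share of the fatty acid enzymes was 0.927%, 0.912% and 0.916%, and that of the sterol enzymes was 0.115%, 0.116% and 0.113%, so the fatty acid enzymes held the larger share in every library.

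Acetyl-CoA for both branches is made by ACLY, which splits citrate exported from mitochondria, and by ACSS2, which activates acetate. ACLY (chr17:41866908-41930542, minus strand) stood at 522, 516 and 522 TPM. ACSS2 (chr20:34872146-34927962, plus strand) stood at 33.2, 33.7 and 32.6 TPM. The citrate-splitting enzyme was therefore the more abundant in 3 of 3 libraries, by 15.7-fold (log2 ratio 3.97 ± 0.03, SD, n = 3). SLC25A1, the mitochondrial citrate exporter, was at 275 ± 7.91 TPM and ME1, a cytosolic source of NADPH, at 88.8 ± 1.13 TPM (SD, n = 3).

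The acetyl-CoA carboxylases make malonyl-CoA, the building unit of fatty acid synthesis. ACACA, the cytosolic enzyme (chr17:37084988-37406818, minus strand), was at 230.1, 228 and 230.5 TPM, with 43396, 47213 and 44288 counts. ACACB, the form tied to the mitochondrial surface and to control of fatty acid oxidation (chr12:109116595-109268226, plus strand), was at 6.23, 5.92 and 6.24 TPM. The libraries of the carboxylases lay far apart, with ACACA 37.5-fold higher (log2 ratio 5.23 ± 0.03, SD, n = 3) and ACACB the lowest of the 37 genes.

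FASN, the multifunctional synthase that builds palmitate (ENSG00000169710, chr17:82078333-82098332, minus strand), was the highest of the 37 genes at 1257, 1219.8 and 1208 TPM, 1.99 times the mean of the next gene, ELOVL5. Its counts were 170569, 181833 and 167127, or 519529 counts over the libraries (exact Poisson interval at 95%, 518117 to 520944). FASN alone held 30.9% ± 0.540 of the counts of the 37 genes and 21.7% ± 0.433 of their TPM (SD, n = 3). Among all genes it ranked 6 by CPM (3691 ± 90.3 CPM, SD, n = 3) and 54 by TPM, since its exons span 9364 bases and CPM is not divided by length. Its nearest neighbours in CPM were EEF2 and MT-ND4 above it and EEF1A1, MT-CO3 and KLK3 below it, genes of translation elongation, mitochondrial respiration and the luminal secretory program. In TPM the nearest were H2AC13, MT-TP, RNU4-2, HSPA8 and RPL29, among them a histone, a mitochondrial tRNA, a spliceosomal RNA, a chaperone and a ribosomal protein. Likeness here is nearness of rank in these 3 libraries only. Besides FASN, the top 100 genes by CPM held FADS2, SCD, ACACA and ACLY, whereas by TPM the top 100 held FASN alone of the 37.

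ELOVL enzymes carry out the first step of each round that lengthens palmitate and longer chains. ELOVL5, which acts on polyunsaturated chains, was at 609, 614 and 632 TPM and was the second highest of the 37 genes. ELOVL7, which acts on saturated chains, was at 232, 236 and 245 TPM. ELOVL1, the elongase of very long saturated chains, was at 131, 133 and 138 TPM. ELOVL6, which lengthens palmitate itself, was low at 11.4, 12.3 and 11.5 TPM, under the median of expressed protein-coding genes in every library. ELOVL5 was 4.60-fold above ELOVL1 (log2 ratio of ELOVL1 over ELOVL5 -2.20 ± 0.01, SD, n = 3). ELOVL7 was 20.3-fold above ELOVL6 (log2 ratio of ELOVL6 over ELOVL7 -4.34 ± 0.08, SD, n = 3). Of the paralogs outside the list, ELOVL2 was at 27.3 ± 1.23 TPM, ELOVL4 at 0.821 ± 0.311 TPM (SD, n = 3), and ELOVL3 had 0 counts, which allows up to 3 counts over the libraries.

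SCD puts the first double bond into stearate and palmitate. SCD (chr10:100347124-100364834, plus strand) was at 579, 585 and 595 TPM, the highest of the desaturases, while its paralog SCD5 was at 4.79 ± 0.122 TPM (SD, n = 3). FADS1 and FADS2, the desaturases of polyunsaturated chains, are neighbours read from opposite strands (chr11:61799625-61829318, minus strand, and chr11:61792980-61867354, plus strand). FADS2 was at 287, 283 and 292 TPM and FADS1 at 92.4, 93.6 and 98.4 TPM, so FADS2 was higher in 3 of 3 libraries, by 3.03-fold (log2 ratio of FADS1 over FADS2 -1.60 ± 0.03, SD, n = 3). Exons of the pair share 490 bases, where reads were counted for neither. FADS3 was at 10.7 ± 0.637 TPM (SD, n = 3).

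The promoter of SCD is shown because it carried 2 matches to the CCAAT box, the letters bound by the factor NF-Y, which is known to act beside SREBPs. Such matches are not particular to SCD, as 5 of the 11 fatty acid enzymes searched and 16.8% of expressed protein-coding genes had 2 or more. Binding was not tested. The sequence runs from 250 bases before the RefSeq start (GRCh38.p14, plus strand, chr10:100346983-100347123) to the base before the deposited gene, with the matches in capitals.
SCD promoter: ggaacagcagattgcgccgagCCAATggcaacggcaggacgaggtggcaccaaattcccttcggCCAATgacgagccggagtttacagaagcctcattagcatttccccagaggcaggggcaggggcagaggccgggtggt

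In the mevalonate arm the 7 enzymes spanned 12.8 to 85.6 TPM, with a median of 35.4 TPM and no gene in the highest 10.0% of expressed protein-coding genes. ACAT2, the thiolase that joins acetyl-CoA units, was at 24.2, 24.0 and 22.4 TPM, although 52.3% of its exon length is shared with other genes and could not be counted. HMGCS1, the cytosolic synthase of HMG-CoA, was at 45.2, 48.0 and 46.1 TPM. Of the kinases of the arm, MVK was low at 13.2, 12.4 and 12.9 TPM, and PMVK was the highest of the arm at 85.8, 85.0 and 85.8 TPM. MVD, the decarboxylase that yields isopentenyl diphosphate, was at 15.2, 15.6 and 15.0 TPM, IDI1, its isomerase, at 35.3, 35.9 and 35.1 TPM, and FDPS, which makes farnesyl diphosphate, at 51.7, 50.5 and 45.4 TPM. FDPS was highest in replicate 1 and lowest in replicate 3, and the other enzymes kept within narrower ranges.

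FDFT1, squalene synthase, takes farnesyl diphosphate into sterols and was the highest of the 18 sterol enzymes at 204, 207 and 203 TPM. SQLE, the epoxidase after it, was at 23.9, 24.0 and 25.9 TPM and LSS, which closes the ring to lanosterol, at 37.7, 38.3 and 37.7 TPM. Of the enzymes that remove the methyl groups of lanosterol, CYP51A1 was at 8.91, 7.60 and 8.92 TPM and HSD17B7 at 7.33, 8.53 and 7.16 TPM, the lowest levels of the arm with the deposited lengths. For CYP51A1, 82.2% of the exon length is shared with other genes and could not be counted. TM7SF2, a sterol reductase, was at 73.2, 69.4 and 63.9 TPM. MSMO1 was at 46.6, 49.4 and 46.5 TPM and NSDHL at 33.6, 35.2 and 37.1 TPM, both enzymes of the complex that removes the paired methyl groups. EBP, the sterol isomerase, was at 111, 107 and 109.8 TPM, and with FDFT1 made up the sterol enzymes among the highest 10.0%. SC5D, a desaturase, was at 21.1, 20.9 and 22.1 TPM, and DHCR7, the last reductase on the way to cholesterol, at 80.9, 83.0 and 83.4 TPM. The arm thus held levels from 7.67 to 205 TPM, a 26.7-fold range, and FDFT1 stood above FDPS and SQLE, the steps before and after it, in every library.

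MSMO1 and NSDHL promoters are shown because several CCAAT boxes (CCAAT on either strand, in capitals) stood in each. In all, 10 of the 15 sterol enzymes searched had 2 or more, against 16.8% of expressed protein-coding genes. Both run from 250 bases before the RefSeq start (GRCh38.p14, plus strand, chr4:165327419-165327622 and chrX:152830813-152830966) to the base before the deposited gene. In these stretches MSMO1 had 3 matches and NSDHL 4, of which 2 share letters, and 1 more match of each lay between there and the RefSeq start.
MSMO1 promoter: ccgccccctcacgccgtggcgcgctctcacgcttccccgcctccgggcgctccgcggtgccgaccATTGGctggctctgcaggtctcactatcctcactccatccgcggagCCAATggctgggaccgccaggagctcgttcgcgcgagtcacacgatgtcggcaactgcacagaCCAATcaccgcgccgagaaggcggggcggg
NSDHL promoter: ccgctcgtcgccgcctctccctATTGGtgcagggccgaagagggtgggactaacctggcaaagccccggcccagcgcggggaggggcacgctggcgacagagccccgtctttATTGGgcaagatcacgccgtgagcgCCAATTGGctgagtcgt

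Of the regulators, SREBF1 encodes the SREBPs that mainly drive fatty acid genes and SREBF2 the one that mainly drives sterol genes. SREBF1 (chr17:17810399-17837002, minus strand) was at 292, 293 and 289 TPM, the highest of the regulators. SREBF2 (chr22:41833079-41907308, plus strand) was at 128, 128 and 127 TPM. SREBF1 was higher in 3 of 3 libraries, by 2.28-fold (log2 ratio 1.19 ± 0.003, SD, n = 3). SCAP, which escorts SREBPs to the Golgi, was at 80.1, 79.8 and 77.2 TPM. INSIG1, which holds SCAP back when sterols are plentiful and is itself an SREBP target, was at 171, 172 and 167 TPM, and INSIG2 at 35.4, 32.5 and 34.6 TPM, so INSIG1 was 4.98-fold higher (log2 ratio 2.32 ± 0.07, SD, n = 3). The proteases that release SREBPs were less abundant, MBTPS1 (site-1 protease) at 31.0, 32.2 and 33.2 TPM and MBTPS2 (site-2 protease) at 20.6, 20.5 and 20.4 TPM, a 1.57-fold difference (log2 ratio 0.65 ± 0.06, SD, n = 3).

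The promoter of SREBF2 is shown because among the promoters searched it alone of the listed genes held the sterol regulatory element searched for, TCACNCCAC. It runs from 250 bases before the RefSeq start (GRCh38.p14, plus strand, chr22:41832855-41833078) to the base before the deposited gene. The element begins 133 bases before the RefSeq start and a CCAAT box on the other strand 106 bases before it, both in capitals.
SREBF2 promoter: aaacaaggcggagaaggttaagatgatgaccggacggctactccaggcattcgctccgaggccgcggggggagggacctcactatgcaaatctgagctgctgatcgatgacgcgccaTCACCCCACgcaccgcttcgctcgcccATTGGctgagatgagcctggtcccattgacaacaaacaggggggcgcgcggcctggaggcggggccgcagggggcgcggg

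Introns of both SREBP genes hold a miR-33 gene, MIR33A in SREBF2 and MIR33B in SREBF1, and miR-33 is known to lower cholesterol export. The mature 5p forms are shown because they share the seed, bases 2 to 8, given in capitals (RefSeq, GRCh38.p14).
hsa-miR-33a-5p: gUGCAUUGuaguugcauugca
hsa-miR-33b-5p: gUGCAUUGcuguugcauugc
Reads over the hairpin of MIR33B numbered 16, 8 and 7, and over that of MIR33A 0, 0 and 1. Libraries of long RNA do not measure mature miRNAs, so these counts are not their levels. In all, 6 miRNA genes lay within the 37 genes, the others being MIR6777, MIR6734, MIR5685 and MIR1908.

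All 8 pairs of enzymes or of regulators kept 1 direction in 3 of 3 libraries, and every pair ratio was larger than its spread. With 3 libraries an exact two-sided sign permutation test cannot give a p below 0.25, which is the value each pair had, so no pair can pass a threshold of 0.05.

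**Figure D2:**
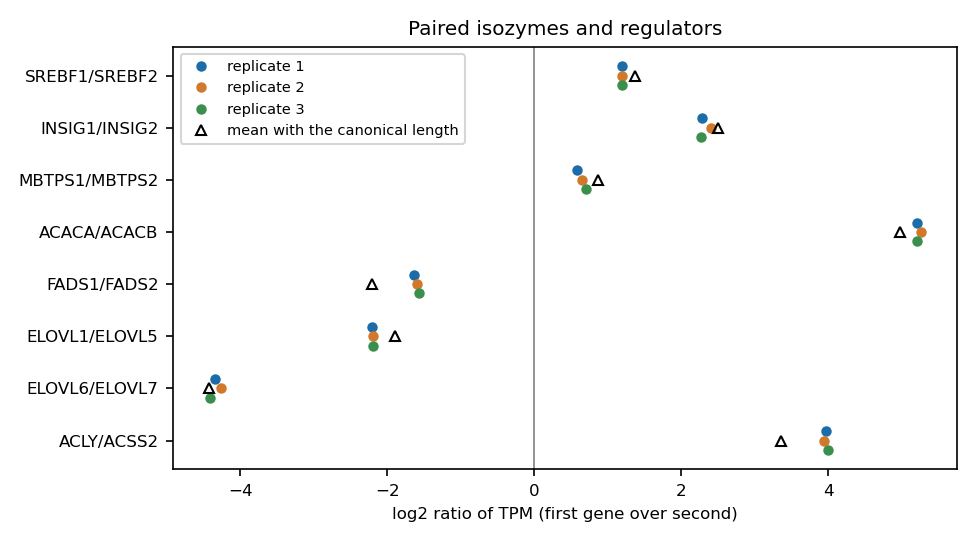
Log2 ratio of TPM of the first gene over the second for 8 pairs, with 1 point for each of the 3 C4-2B libraries and a triangle for the mean with canonical transcript lengths. All points of a pair lie on 1 side of 0, from -4.34 on average for ELOVL6/ELOVL7 to 5.23 for ACACA/ACACB, and the triangles lie on the same side.

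Most neighbours in the order of levels were apart in every library. Of 36 neighbouring steps in the order of mean TPM, 27 had no overlap between the libraries of both genes. The order came from these same libraries with the deposited lengths, so the count describes it and is no test. The 9 neighbours that did overlap were SREBF1 and FADS2, FDPS and MSMO1, MSMO1 and HMGCS1, IDI1 and NSDHL, NSDHL and INSIG2, INSIG2 and ACSS2, ACSS2 and MBTPS1, SQLE and ACAT2, and CYP51A1 and HSD17B7. Apart from the first and the last of these pairs, their genes lay between ACAT2 (23.5 TPM) and FDPS (49.2 TPM).

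Gene length entered these levels, and some exons could not be counted. Reads over exons of several genes were given to none, and 16 of the 37 genes share exon bases with another gene, 6 of them over 10%. CYP51A1 shares 82.2% of its exon bases, 3211 of them with LRRD1 on the same strand, a gene that had 3 counts in all. Divided by its length outside those exons, its level was 45.4 TPM in place of 8.48, and its place rose from 35 to 22 of 37. ACAT2 shares 52.3% of its exon bases, 1850 with ENSG00000112096 and 397 with TCP1, both on the other strand, and its level became 47.0 TPM in place of 23.5. For FDPS (18.6% shared), IDI1 (17.9%), HMGCS1 (15.0%) and MBTPS2 (13.4%) the values became 57.7, 41.2, 52.0 and 22.6 TPM. Strand was not used in counting, so reads of a gene and of an antisense transcript over it cannot be told apart. FASN, free of overlap, moved only with the scaling, to 1171 TPM.

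With the length of the canonical transcript in place of all exons, FADS2 rose to 693 TPM and stood second after FASN at 918 TPM. Its ratio to the deposited level, 2.41, was the highest of the 37, and the lowest was 0.549 for SC5D. For 12 of the 37 genes the canonical transcript had fewer than 0.5 times the bases of the deposited length. Under this length FADS2 exceeded FADS1 by 4.62-fold and ACLY exceeded ACSS2 by 10.2-fold. The low level of ACACB, at 6.41 TPM, and the high level of ELOVL5, at 576 TPM, moved little.

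**Figure D3:**
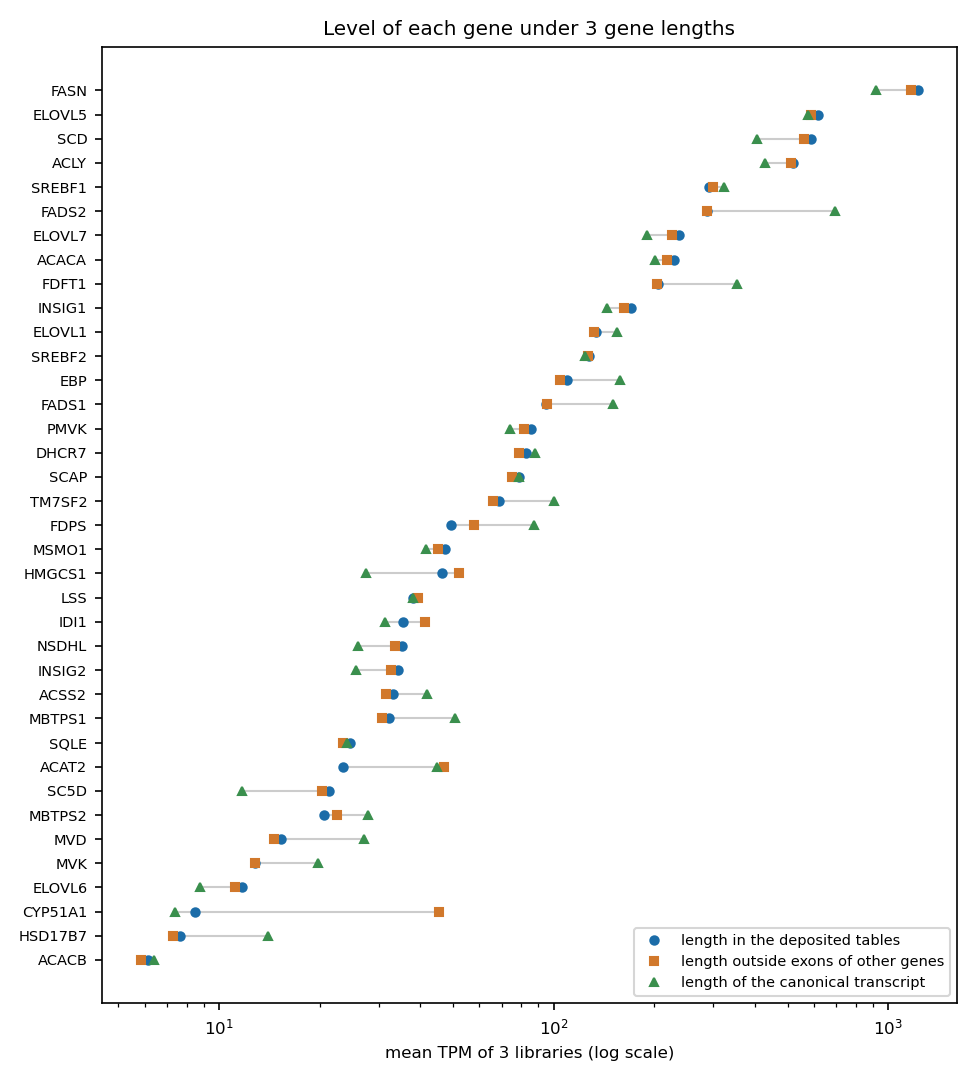
Mean TPM of each gene over the 3 C4-2B libraries on a log axis, computed with the deposited length (circles), the length outside exons of other genes (squares) and the canonical transcript (triangles). CYP51A1 moves furthest, from 8.48 TPM to 45.4 TPM outside overlaps, FADS2 moves to 693 TPM with the canonical transcript, and FASN is highest under each length.

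Copies of the listed genes elsewhere in the genome could draw reads away from them. The tables list 17 pseudogenes named after 5 of the 37 genes, with 638 counts in all, or 0.401% of the counts of those 5 genes. HSD17B7P2 had 110, 122 and 119 counts, or 5.16 TPM ± 0.167 (SD, n = 3), and the copies of HSD17B7 together reached 24.5% of its own count (438, 560 and 436). The 3 copies of CYP51A1 reached 6.68% of its count and the 8 of FDPS 2.07%, while IDI1P1, IDI1P2 and IDI1P3 held 1 count together and SCDP1 held 11. For HSD17B7 and CYP51A1 the division of reads between gene and copy is uncertain, since reads aligned to several places were not counted.

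Between the 3 libraries the listed genes differed little. The highest library exceeded the lowest by a median of 1.05-fold over the 37 genes (range 1.01 to 1.20, the highest for HSD17B7), and by 1.06-fold over the 9977 genes with at least as many counts as the lowest of the 37. A chi-square test of each gene's 3 counts against TMM-scaled library sizes, divided by 2 because both mates were counted, called FASN and TM7SF2 at a Benjamini-Hochberg adjusted p under 0.05, or 2 of 37 (5.41%) against 0.792% of 22229 genes tested. Without the adjustment 7 of the 37 (18.9%) had a p under 0.05, against 11.3%. These were FASN, TM7SF2, FDPS, FADS1, FADS2, ELOVL7 and ELOVL5. With the chi-square not divided, the same 7 were called, or 18.9%, against 17.3% of genes. Each of the 37 had at least 1434 counts, where the minimum for testing was 30.

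FASN differed by 1.05-fold (adjusted p 8.87e-21) and TM7SF2 by 1.16-fold (adjusted p 0.0223). Both were highest in replicate 1 and lowest in replicate 3, as FDPS was, whereas FADS1, FADS2, ELOVL5 and ELOVL7 were highest in replicate 3. Such orders were common in the list, where 17 genes were highest in replicate 1, 11 were highest in replicate 3 and 17 were lowest in replicate 3. The GC content of the canonical transcript was 65.3% for FASN, 62.4% for TM7SF2, 55.0% for FDPS, 59.0% for FADS2, 49.3% for FADS1, 39.9% for ELOVL5 and 37.0% for ELOVL7, and the median of the 37 was 49.6%. With library factors set in 20 bins of GC content, an alternative added after the data were seen, the adjusted p of FASN was 0.956 and that of TM7SF2 0.263, and this chi-square test called 0 of the 37 against 0.351% of 22229 genes, with 5 at an unadjusted p under 0.05 against 9.65%. At that background the count of 0 says little of the 37 as a group. Without replicate 1 FASN had an adjusted p of 0.264 and TM7SF2 of 0.401, and without replicate 3 TM7SF2 had 0.637 while FASN kept 1.45e-06.

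**Figure D4:**
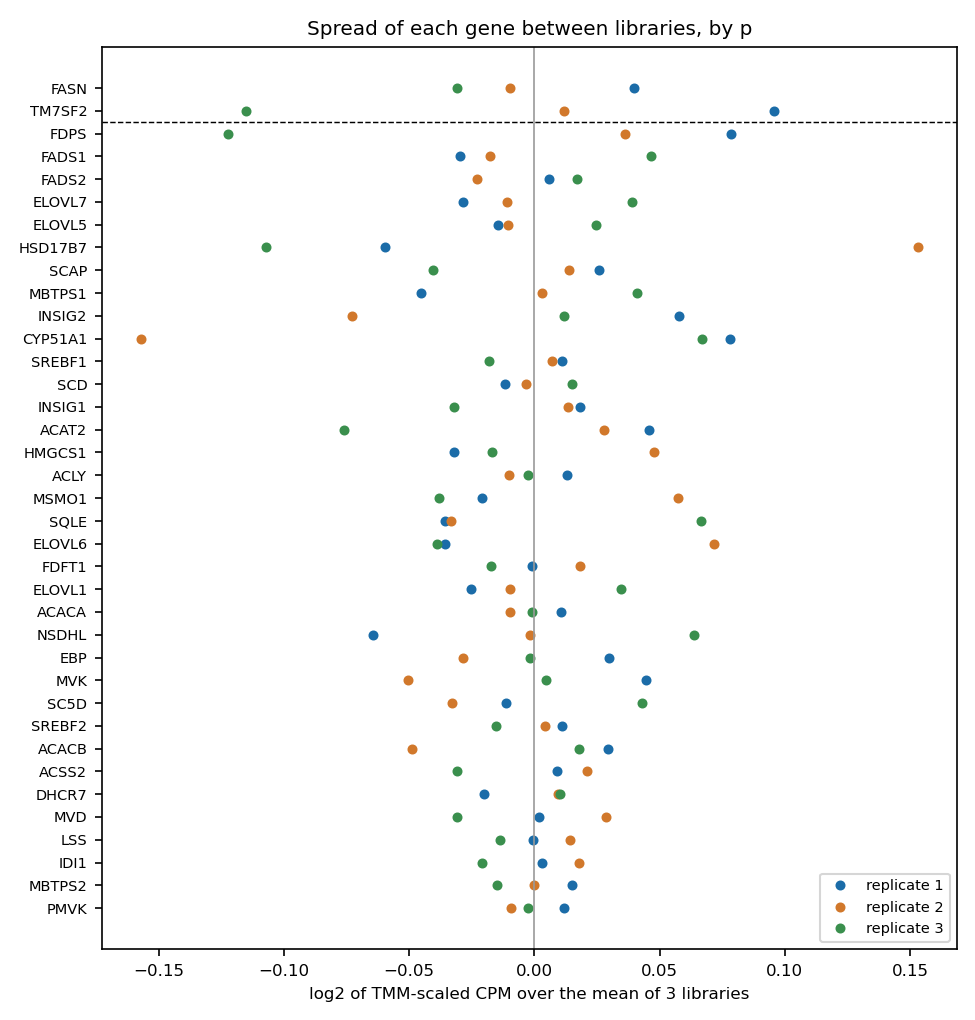
Log2 of the TMM-scaled CPM of each gene in each C4-2B library over the mean of the 3 libraries, with genes ordered by the p of the halved chi-square. The dashed line separates FASN and TM7SF2, which were called, from the other genes, and the widest gene, HSD17B7, spans 1.20-fold between its highest and lowest library.

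Other genes next to these pathways gave 53 more levels, of which 47 were expressed, where 61.2% of protein-coding genes were. The halved chi-square called 0 of the 53 between libraries, where 0.792% of all genes tested were called, and at that background 0 says little. At an unadjusted p under 0.05 stood 6, where 11.3% of genes did. ELOVL3 and HACD1 had too few counts to be tested. In the elongation cycle after the ELOVL step, the dehydratase HACD2 was highest at 153 ± 3.42 TPM and HACD1 lowest at 0.0497 ± 0.0584 TPM (SD, n = 3). Of the acyl-CoA synthetases, which activate fatty acids, ACSL3 was at 341 ± 7.05 TPM and ACSL6 at 0.171 ± 0.0355 TPM (SD, n = 3). The separate mitochondrial pathway of fatty acid synthesis lay between CBR4 at 17.6 ± 0.759 and HSD17B8 at 69.1 ± 4.17 TPM, and the isoprenoid branches between DHDDS at 14.1 ± 0.877 and NUS1 at 40.5 ± 1.66 TPM (SD, n = 3). Among other regulators PGRMC1, a sterol-pathway membrane protein, was at 149 ± 0.748 and THRSP, a protein linked to lipogenesis in liver, at 2.30 ± 0.144 TPM (SD, n = 3). Of the opposite process, fatty acid oxidation, ECHS1 was at 520.2 ± 10.1 and CPT1C at 1.59 ± 0.220 TPM (SD, n = 3), and ACAT1, the mitochondrial paralog of ACAT2, was at 63.3 ± 1.62 TPM (SD, n = 3).

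Promoters of 33 of the 37 genes were matched by symbol in a RefSeq table (GRCh38.p14, 250 bases before to 50 after each start, 27305 genes). FASN, SQLE, ACAT2 and FDFT1 were not matched. At least 1 CCAAT on either strand stood in 23 of the 33 (69.7%), against 43.6% of 9855 expressed protein-coding genes and 39.7% of all genes of the table. The sterol enzymes had it in 13 of 15, the fatty acid enzymes in 8 of 11 and the regulators in 2 of 7. Several matches in 1 promoter were found for 15 of the 33 (45.5%), against 16.8% of expressed protein-coding genes, and MVK and NSDHL had the most, 5 each. On the gene's own strand alone these counts were 12 of 33 (36.4%) against 25.9% for 1 match or more, and 3 of 33 (9.09%) against 7.06% for several, so both gaps to expressed protein-coding genes were narrower. The GC box GGGCGG was in 29 of 33 (87.9%), against 77.1%. The E-box CACGTG, which reads alike on both strands, was in 5 of 33 (15.2%), against 12.8%. The sterol regulatory element TCACNCCAC was in 1 of 33 (3.03%), against 1.45%. In 10 of the 33 genes several promoters were searched. These are letter matches in a fixed window and say nothing of binding in C4-2B cells.

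**Figure D5:**
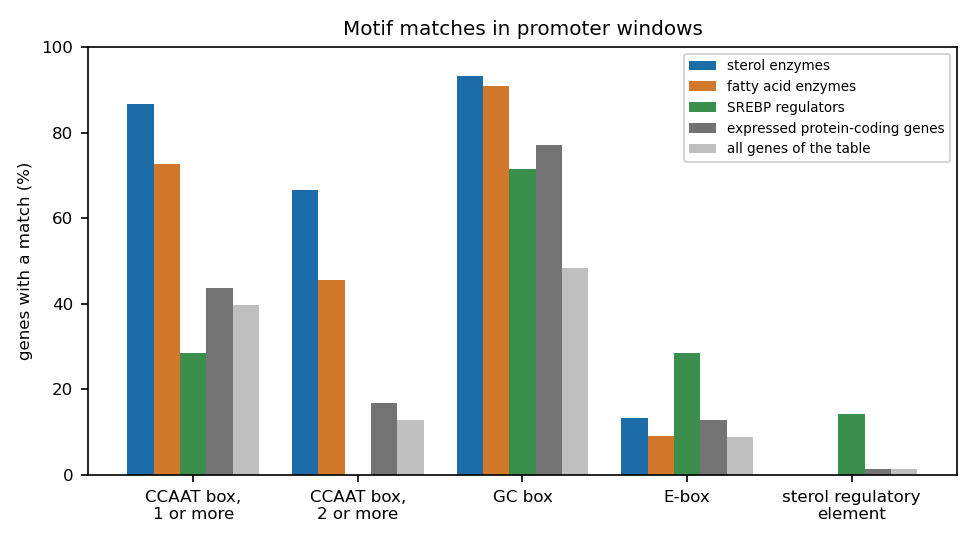
Share of genes with a match to each motif, on either strand, in promoters from 250 bases before to 50 after the RefSeq start. Bars start at 0 and stand for the sterol enzymes (15 genes), the fatty acid enzymes (11), the regulators (7), expressed protein-coding genes (9855) and all genes of the table (27305), and the sterol enzymes stand highest for the CCAAT box, with 86.7% against 43.6% of expressed protein-coding genes for 1 match or more and 66.7% against 16.8% for 2 or more.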

How the data were processed

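RNA was depleted of ribosomal RNA and sequenced as directional read pairs. Per the labels and the file headers, the authors aligned reads to GRCh38 with STAR 2.7.0f and deposited raw counts per gene from featureCounts (Subread 1.6.3, Ensembl release 90). The recorded command set no strand and no pair counting, so either strand was counted and mates were counted separately. A deposited length, another value per gene, is the union of its exons. Groups came from sample titles. The members and lists were chosen with earlier results of these data known. Symbols (57532 of 58302 genes), gene types and canonical transcripts came from GENCODE 44.

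TPM, CPM, means and SDs were computed here with Python 3.11.15 and scipy 1.17.1, and TMM factors with edgeR 4.0.16. Genes with at least 30 counts entered the chi-square test (2 degrees of freedom). The chi-square test was also run on simulated counts. Where no change was built in, 0 of 22292 genes were called and 4.78% had a p under 0.05 before adjustment. The real libraries gave 11.3% of 22229 genes at that level. The simulated counts thus do not show that the test is calibrated for the real libraries. When 200 genes were shifted by 2-fold in 1 simulated library, 69.0% of the shifted genes were called, out of 22306 tested. Named genes are all 37, the highest and lowest of each neighbouring list, those under 3 counts there, their pseudogenes and the 5 nearest to FASN. ELOVL2, ELOVL4, SCD5 and FADS3 were named after their values were seen. Alternatives were another scaling, length, denominator and count minimum, each replicate left out, and 1 strand for motifs. Canonical lengths, the GC correction and the removal of members on chromosome 17 were chosen after seeing the data. Protein sequences of the members were not used here.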

Additional observations from a re-analysis of the deposited data

How the results depend on the processing

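No paired analysis was possible because the analysis held a single group and replicate numbers therefore join no groups. No direction of a pair and no expression call of the 37 genes reversed under any alternative run. The median level of 49.2 TPM became 68.6 TPM when only protein-coding genes entered the sum, 57.7 TPM with lengths outside overlaps, 73.8 TPM with canonical lengths and 75.3 as CPM. With protein-coding genes without mitochondrial genes as the denominator, the shares of counts became 1.31% for all 37 genes, 0.126% for sterol enzymes, 1.01% for fatty acid enzymes and 0.178% for regulators. Without FASN the share was 0.827% for all and 0.549% for fatty acid enzymes. Without the members on chromosome 17 (FASN, ACACA, ACLY and SREBF1) it was 0.569% for all, 0.366% for fatty acid enzymes and 0.0876% for regulators. The 2 genes called between libraries (0.792% of all genes tested) became 7 with the chi-square not divided (17.3% of all), 0 with a GC correction (0.351% of all) and 0 to 3 with a replicate left out. These were 0 without replicate 1 (0.186% of all, with 8 of the 37 at an unadjusted p under 0.05 against 8.34%), 3 without replicate 2 (1.11% of all, FDPS joining at an adjusted p of 0.0379) and 1 without replicate 3 (0.216% of all). The share of all genes called moved with the setting as well, so the counts are not read as a result about the 37. Without a test, 0 of the 37 exceeded 1.5-fold. The CCAAT count of 23 genes (69.7% against 43.6% of expressed protein-coding genes) became 12 on the gene's own strand (36.4% against 25.9%), and that of genes with several matches fell from 45.5% against 16.8% to 9.09% against 7.06%. Apart from the shared exons, canonical lengths and strand, whose construction sets the change, the cause was not tested. Depth limits the levels that rest on few counts, such as HACD1 (9 counts), ACSL6 (101) and ELOVL4 (112), whereas HSD17B7, with the fewest counts of the 37 genes, had 1434.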
